A study of Mus musculus with 2 samples.

Results

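The miR-322 cluster, which runs from Mir322 to Mir450b, is a group of 7 microRNA (miRNA) hairpins that lie within 6353 bases on the minus strand of the mouse X chromosome. Its members were taken by name from the GENCODE M21 annotation, and all 7 had a row among the 1973 miRNA genes counted. Mir450a-1 and Mir450a-2 are called Mir450-1 and Mir450-2 in that annotation, and these names are used here. The study sequenced RNA below 30 nt from the forebrain of B6NCrl mouse embryos at embryonic day 12.5, in 1 group with 2 biological replicates and no treatment or second genotype. Replicate 2 was a pool of 68 embryos and replicate 1 a pool of 120 embryos, both of mixed sex and healthy. There was no contrast between conditions, so the comparisons are between hairpins, between the pools, and between the cluster and other miRNA genes.

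A miRNA is cut from a hairpin in a longer primary transcript, and its bases 2 to 8, the seed, choose the messenger RNAs that it lowers. Hairpins that share a primary transcript can be made together, and each hairpin can give a mature miRNA from its 5′ arm and another from its 3′ arm. The cluster lies downstream of the long non-coding RNA gene known as H19X, which M21 calls C430049B03Rik. miR-322, the mouse counterpart of human miR-424, and miR-503 resemble the miR-15 and miR-16 miRNAs, which restrain cell-cycle genes such as cyclins. In mouse muscle precursors they have been tied to exit from the cell cycle. miR-351 resembles miR-125, a miRNA of developing brain and many other tissues.

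The mature sequences below are shown because they place the members in seed families. They come from RefSeq (GRCm38.p6), run 5′ to 3′, and have the seed in capitals. The first set holds both cluster miRNAs of the miR-15 and miR-16 kind with 2 relatives from other chromosomes.
miR-322-5p: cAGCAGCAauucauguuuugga
miR-503-5p: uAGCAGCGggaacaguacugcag
miR-15a-5p: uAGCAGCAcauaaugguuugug
miR-16-5p: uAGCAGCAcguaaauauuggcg
miR-322-5p carried the same 7-base seed as miR-15a-5p and miR-16-5p, whereas the seed of miR-503-5p matched that of miR-322-5p over bases 2 to 7 and differed by A8G, where miR-322-5p has A, miR-503-5p has G and positions count from 1 at the 5′ end. Aligned from base 1 without gaps, miR-322-5p was identical to miR-15a-5p at 15 of 22 positions and to miR-503-5p at 11 of 22.

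The second set shows miR-351-5p beside its seed relatives.
miR-351-5p: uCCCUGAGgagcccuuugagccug
miR-125a-5p: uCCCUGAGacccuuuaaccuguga
miR-125b-5p: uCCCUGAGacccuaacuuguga
The seeds were the same, and beyond them little was shared: miR-351-5p was identical to miR-125a-5p at 10 of 24 positions and to miR-125b-5p at 10 of 22.

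The third set holds miRNAs of the downstream end of the cluster, whose seeds were found in no gene outside it that had a read.
miR-542-3p: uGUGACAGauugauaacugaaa
miR-450a-5p: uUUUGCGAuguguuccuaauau
miR-450a-1-3p: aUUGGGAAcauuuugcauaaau
miR-450a-2-3p: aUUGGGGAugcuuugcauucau
miR-450b-3p: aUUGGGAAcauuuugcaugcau
miR-450a-1-3p and miR-450b-3p shared their seed and were identical at 20 of 22 positions, while miR-450a-2-3p had a seed of its own. miR-450a-5p is made from both Mir450-1 and Mir450-2.

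The cluster held 1.79% ± 0.0377 of all reads assigned to a miRNA gene (SD, n = 2). Replicate 2 gave it 79846 of 4397107 assigned reads, and replicate 1 gave it 76376 of 4333194. Per 1000000 assigned reads (CPM, the scale of all levels here) the cluster summed to 18159 in replicate 2 and 17626 in replicate 1. Each read can span a mature miRNA, so levels were not divided by hairpin length. Nor were they corrected for how well each sequence is captured, so differences between hairpins are differences in reads. The label of the tissue was checked against 11 neural miRNA genes, of which 10 had a row and reads in both libraries. Of these, 3 share no stretch of 20 bases with another hairpin: Mir92b at 19820 CPM (replicate 2) and 19420 CPM (replicate 1), Mir137 at 5286 CPM (replicate 2) and 5127 CPM (replicate 1), and Mir153 at 2251 CPM (replicate 2) and 3304 CPM (replicate 1). The other 7 share a stretch, and their levels, down to 1.36 CPM for Mir124a-1 in replicate 2, can leave out reads that match several places. The 4 muscle genes that share no stretch stood far lower, at up to 26.6 CPM for Mir206 in replicate 2 and up to 19.2 CPM for Mir208b in replicate 1. The other 4 muscle genes with a row, Mir133a-1 and Mir133a-2 at 0 reads among them, share a stretch, so their counts set no limit on those miRNAs. Not every other list stood low. The endothelial gene Mir126a had 21180 CPM (replicate 2) and 16564 CPM (replicate 1). The 7 mesenchymal and mural genes with a row summed to 16134 CPM (replicate 2) and 13294 CPM (replicate 1). The erythroid and leukocyte lists stood far below the neural list. The check thus does not show that the tissue was neural alone. All intervals given here cover counting error only.

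The hairpins of the cluster spanned a 97.3 ± 0.379-fold range in CPM from Mir322 to Mir450b (SD, n = 2) over the 5 that share no stretch of 20 bases with another hairpin, and their order along the transcript was not their order in level. With Mir450-1 and Mir450-2, whose levels are uncertain for the reason given with their hairpin sequences, the range was 2639 ± 542.4-fold. From the upstream end the hairpins run Mir322, Mir503, Mir351, Mir542, Mir450-2, Mir450-1 and Mir450b. The levels along this line alternated: high at Mir322, low at Mir503, high again at Mir351, then lower at Mir542, lowest at the Mir450-2 and Mir450-1 pair and higher again at Mir450b. All reads of the 7 hairpins lay on the gene strand, and none lay on the opposite strand in either library. M21 places no other miRNA gene inside the cluster. C430049B03Rik (ENSMUSG00000087365.7; mm10 chrX:53055046-53057190, minus strand) ends 696 bases upstream of Mir322, and the lincRNA gene Gm28730 (chrX:53051194-53053159, minus strand) lies between Mir351 and Mir542. No hairpin of the cluster lay in an exon or intron of a gene of another type in M21.

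**Figure D1:**
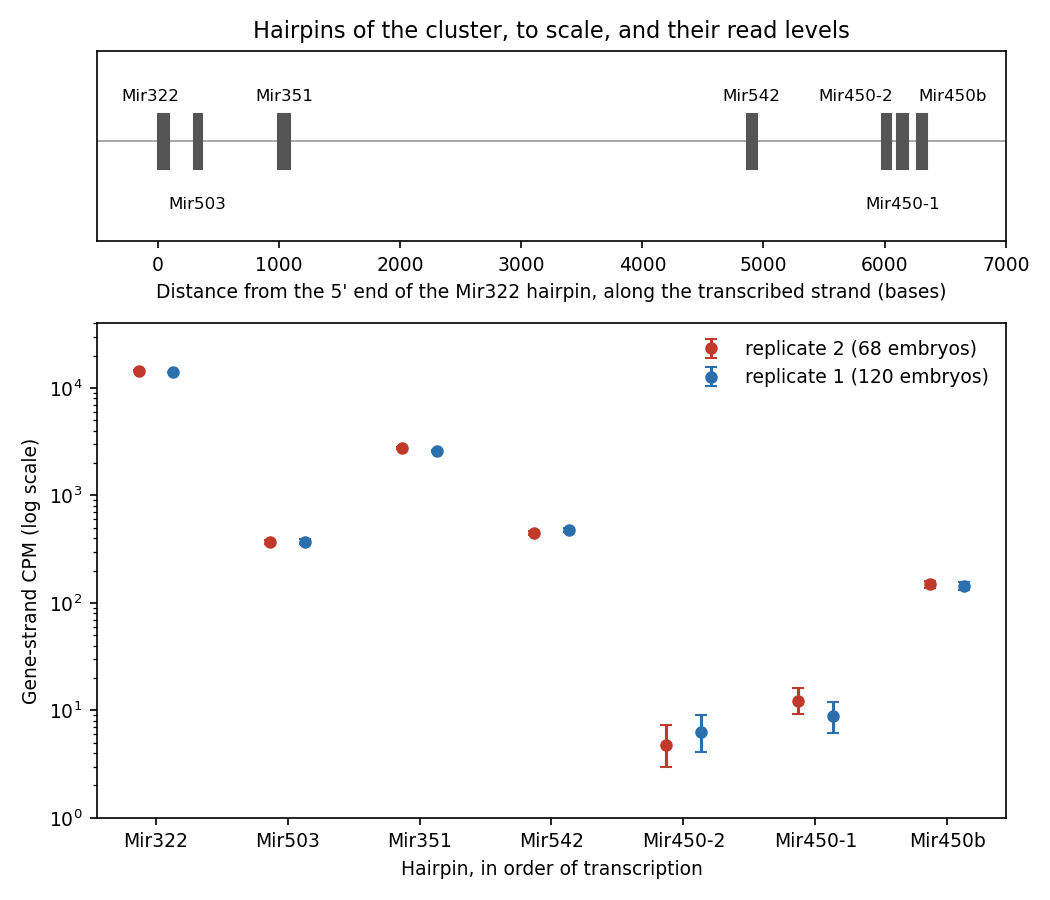
The upper panel draws the 7 hairpins to scale by distance from the 5′ end of Mir322 (bases). The lower panel plots gene-strand CPM (log axis) in replicate 2 (red) and replicate 1 (blue) with exact 95% Poisson intervals: Mir322 stands at 14433 CPM (replicate 2) and 14051 CPM (replicate 1), and Mir450-2 and Mir450-1 stand between 4.78 and 12.3 CPM.

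Mir322 (ENSMUSG00000065418.1; mm10 chrX:53054255-53054349) led the cluster, at 14433 CPM (63464 reads) in replicate 2 and 14051 CPM (60887 reads) in replicate 1. Both libraries put it at much the same height, with a mean of 14242 ± 270.0 CPM (SD, n = 2), the 17th highest of the 1973 genes in assigned reads. Places among genes and clusters given here leave out the reads that match several places, 37.9% of each library, and 923 of the 1973 genes share a stretch of 20 bases with another hairpin. Mir322 held 79.5% of the cluster's reads in replicate 2 (exact 95% binomial interval 79.20% to 79.76%) and 79.7% in replicate 1 (79.433% to 80.005%). In assigned reads it was the highest of the 120 miRNA genes with a row on the X chromosome, ahead of Mir652 at 5959 ± 293.9 CPM. The 7 hairpins together held 37.4% of the X-linked reads in replicate 2 and 38.3% in replicate 1.

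Mir503 (ENSMUSG00000076122.1; chrX:53053984-53054054) begins 200 bases downstream of Mir322 and carries the related seed. Its level was 369.1 CPM (1623 reads) in replicate 2 and 370.2 CPM (1604 reads) in replicate 1. The values were almost equal, and placed Mir503 38.5 ± 0.809-fold below Mir322 (SD, n = 2). Its share of the cluster was 2.07% ± 0.0477.

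Mir351 (ENSMUSG00000065503.1; chrX:53053255-53053353) was second, at 2741 CPM (12054 reads) in replicate 2 and 2570 CPM (11136 reads) in replicate 1. It was 7.18 ± 0.342-fold above its upstream neighbour Mir503 and 5.37 ± 0.143-fold below Mir322 (SD, n = 2). Its share of the cluster's reads was 15.1% in replicate 2 (14.85% to 15.35%) and 14.6% in replicate 1 (14.33% to 14.83%). These intervals did not overlap, and a share within the cluster does not depend on how the libraries are scaled to each other.

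Mir542 (ENSMUSG00000076140.1; chrX:53049403-53049487) lies 3767 bases beyond Mir351, the widest gap in the cluster. Its 3p product is known from human cells as a repressor of the survival gene survivin. Its level was 449.4 CPM (1976 reads) in replicate 2 and 475.4 CPM (2060 reads) in replicate 1. Although it lies farther downstream, it was 1.25 ± 0.0472-fold above Mir503 in reads (SD, n = 2), and the ranges of the 2 hairpins over the libraries did not overlap. A difference in capture between the 2 sequences could repeat in both libraries, so the ranges do not address it.

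The 3 miR-450 hairpins follow within 371 bases of each other and were the lowest of the cluster in assigned reads. Mir450b (ENSMUSG00000076050.1; chrX:53047997-53048078), the last hairpin, stood at 148.7 CPM (654 reads) in replicate 2 and 144.0 CPM (624 reads) in replicate 1. Mir450-1 (ENSMUSG00000065486.1; chrX:53048154-53048244) stood at 12.3 CPM (54 reads) in replicate 2 and 8.77 CPM (38 reads) in replicate 1. Mir450-2 (ENSMUSG00000076399.1; chrX:53048299-53048367) stood at 4.78 CPM (21 reads) in replicate 2 and 6.23 CPM (27 reads) in replicate 1. Mir450b thus stood 14.3 ± 3.05-fold above Mir450-1 and 27.1 ± 5.68-fold above Mir450-2 (SD, n = 2). Between Mir450-1 and Mir450-2 the ranges of the libraries did not overlap, but the 95% Poisson intervals of replicate 1 did, at 6.21 to 12.04 CPM for Mir450-1 and 4.11 to 9.07 CPM for Mir450-2. In replicate 2 they stood apart, at 9.23 to 16.0 CPM for Mir450-1 and 2.96 to 7.30 CPM for Mir450-2.

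The low counts of this pair have a limit that can be seen in the hairpins. Their RefSeq sequences are shown with the longest stretch they share in capitals, 25 bases that hold the whole of miR-450a-5p.
Mir450-1: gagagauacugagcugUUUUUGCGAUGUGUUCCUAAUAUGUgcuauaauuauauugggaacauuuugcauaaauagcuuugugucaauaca
Mir450-2: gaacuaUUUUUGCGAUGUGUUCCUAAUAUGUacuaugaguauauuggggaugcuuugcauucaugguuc
A read of miR-450a-5p matches both hairpins, and reads that match several places stood outside the gene counts. How many of them were miR-450a-5p cannot be read from the files. The assigned reads of Mir450-1 and Mir450-2 therefore leave out an unknown number of reads, and the levels of these hairpins and their distance from Mir450b are uncertain. Each of the other 5 hairpins shared no stretch of 20 bases with another M21 hairpin. The longest stretch was 19 bases for Mir450b, with Mir450-1, and 13 or fewer for Mir322, Mir503, Mir351 and Mir542. The 97.3-fold range of the cluster rests on these 5 hairpins. A read of Mir450b that lies within the 19 shared bases would match Mir450-1 too. The level of Mir450b, the low end of this range, can thus leave out such short reads. Places other than M21 miRNA hairpins were not searched.

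In assigned reads, the order was Mir322, Mir351, Mir542, Mir503, Mir450b, Mir450-1 and Mir450-2 in both libraries, and no neighbours in it had overlapping ranges. The places of Mir450-1 and Mir450-2 in this order are uncertain, as an unknown number of their reads was not counted. With 2 libraries, an exact sign-flip test of a pair of hairpins over the libraries could not give a p below 0.5, so ranges and SDs are given in place of p. The order was the same per base of hairpin. Outside the cluster, the genes nearest to Mir322 in level over the 2 libraries were Mir487b at 13996 ± 1033 CPM, Mirlet7i at 14922 ± 1891 CPM and Mir106b at 15720 ± 768.8 CPM. Those nearest to Mir351 were Mir106a at 2742 ± 111.7 CPM, Mirlet7d at 2775 ± 52.1 CPM and Mir425 at 2739 ± 113.2 CPM. Those nearest to Mir542 were Mir485 at 459.9 ± 38.0 CPM, Mir760 at 442.9 ± 21.4 CPM and Mir339 at 488.6 ± 13.6 CPM. Likeness here is the distance between log2(CPM + 1) values over 2 libraries, which is a likeness of level alone.

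Within its seed family Mir322 was the leading gene in assigned reads. RefSeq lists 11 genes with the seed of miR-322-5p, of which 10 had a row. Mir322 held 52.0% of the family's reads in replicate 2 and 49.3% in replicate 1. Mir15a followed, with 6607 CPM (replicate 2) and 7188 CPM (replicate 1), so that Mir322 was 2.07 ± 0.163-fold higher (SD, n = 2). Mir16-1, from the same transcript as Mir15a, had 3470 CPM (replicate 2) and 3879 CPM (replicate 1). Mir15b had 2138 CPM (replicate 2) and 2274 CPM (replicate 1), and its partner Mir16-2 had 748.7 CPM (replicate 2) and 822.7 CPM (replicate 1). Mir195a stood at 346.8 CPM (replicate 2) and 289.9 CPM (replicate 1), and Mir503 was 1.17 ± 0.150-fold above it (SD, n = 2). Mir195b had 1 read in replicate 2 and none in replicate 1, and Mir6342, Mir6353 and Mir6419 had none in either.

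The shares in this family are bounded by what could be counted. Mir16-1 and Mir16-2 both yield miR-16-5p and share a stretch with each other, so reads of miR-16-5p that match both are not counted. Counting them would raise the family sum and lower the share of Mir322, and the place of Mir322 above them holds for assigned reads alone. Mir497 had no row of its own, and 2015 reads in replicate 2 and 1756 reads in replicate 1 lay on its strand, counted opposite to the overlapping gene Mir497b. With these credited, the share of Mir322 was 49.9%. With the seed taken as bases 2 to 7, which brings in Mir503, Mir322 and Mir503 together held 51.3% ± 1.92 (SD, n = 2). Counts are per hairpin and do not separate its arms, so these are shares of hairpin reads, not of mature miRNAs with the seed.

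Mir351 was second in its own seed family in assigned reads. It had 2741 CPM (replicate 2) and 2570 CPM (replicate 1), against 4775 CPM (replicate 2) and 4813 CPM (replicate 1) for Mir125a, 2275 CPM (replicate 2) and 2322 CPM (replicate 1) for Mir125b-1 and 1047 CPM (replicate 2) and 1029 CPM (replicate 1) for Mir125b-2. Mir351 was thus at 0.554 ± 0.0284 of the level of Mir125a and 1.16 ± 0.0694-fold above Mir125b-1 (SD, n = 2). It held 25.3% of the reads of the 6 family genes in replicate 2 and 23.9% in replicate 1, and Mir6367 and Mir6394, the other members, had no reads. Mir125b-1 and Mir125b-2 yield the same miR-125b-5p and share a stretch, so their levels leave out reads that match both. Counting those would lower the share of Mir351, and its place above Mir125b-1 is uncertain.

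**Figure D2:**
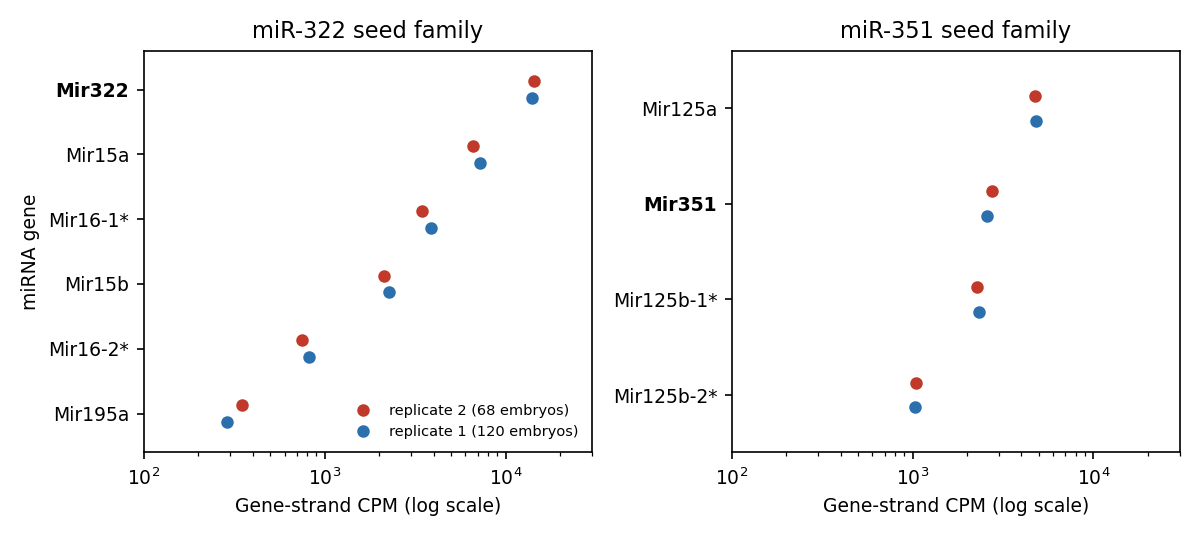
Gene-strand CPM (log axes) in replicate 2 (red) and replicate 1 (blue) of the genes of at least 1 CPM whose mature miRNA has the seed of miR-322-5p (left) or miR-351-5p (right), cluster hairpins in bold. An asterisk marks genes that share a stretch of 20 bases with another hairpin, and Mir497 has no row: Mir322 stands highest in its family in assigned reads, and Mir351 below Mir125a.

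The pools gave close levels for the cluster. Its sum differed by 0.04 on the log2(CPM + 1) scale, replicate 2 minus replicate 1. A two-sided Fisher's exact test on the reads, with Benjamini-Hochberg adjustment over all 511 genes with at least 10 reads in the libraries together, compared these 2 libraries and no conditions. At an adjusted p under 0.05, 2 of the 7 hairpins differed, both higher in replicate 2. Of all tested genes 32.7% differed, with 20.2% of all tested genes higher and 12.5% lower in replicate 2. Passing this threshold depends on depth: among genes of at least 100 CPM, 2 of 5 hairpins and 139 of 229 genes differed. With a 2-fold difference also required, none of the 7 did, where 2.74% of all tested genes did. At an unadjusted p under 0.05 and any size of difference, 2 of the 7 differed, where 39.9% of all tested genes did. The median absolute log2 difference was 0.08 over the 7 hairpins and 0.20 over the 511 genes. Over genes of at least 100 CPM it was 0.05 for the 5 hairpins among them and 0.11 for 229 genes. No test of this difference was made.

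Mir351 was higher in replicate 2 by 0.09 on the log2 scale (95% counting interval 0.06 to 0.13; Fisher's exact test, adjusted p = 4.49e-06). This call held with edgeR's TMM scaling, at 0.05 and an adjusted p of 0.0270, and with DESeq2 size factors, at 0.07 and 0.00094. Mir322 was higher by 0.04 (0.02 to 0.05; Fisher's exact test, adjusted p = 9.86e-06), and this call ended with TMM scaling, at -0.0044 and an adjusted p of 0.748, and with DESeq2 size factors, at 0.02 and 0.131. Mir542 differed by -0.08 (-0.17 to 0.0086; Fisher's exact test, adjusted p = 0.174) and passed the threshold with TMM scaling alone, at -0.12 and an adjusted p of 0.0216. For Mir503 the log2 difference was -0.0041 (-0.10 to 0.10), and for Mir450b it was 0.05 (-0.11 to 0.21). Mir450-1 and Mir450-2 pointed in opposite directions, at 0.44 (-0.14 to 1.12) and -0.32 (-1.28 to 0.49). Neither passed the test, and at their depth the intervals reach past a 2-fold difference. The intervals of these log2 differences are for the ratio of CPM without the added 1, which matters at such low levels. With 0.1 added in place of 1, the differences of Mir450-1 and Mir450-2 were 0.48 and -0.38.

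**Figure D3:**
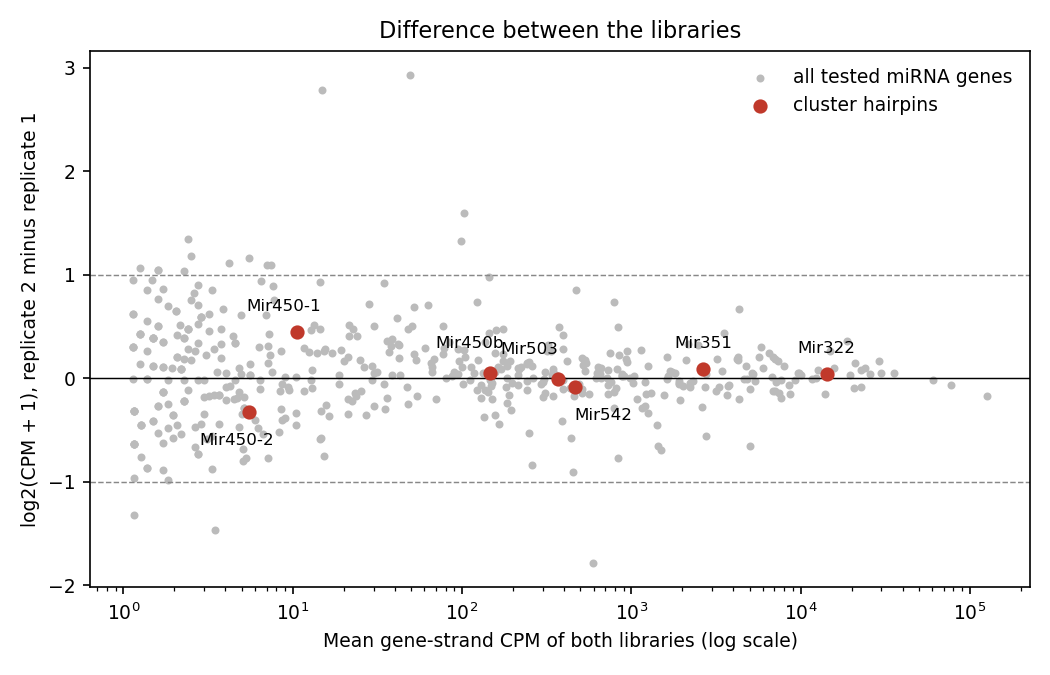
Each point is a miRNA gene with at least 10 reads, by mean gene-strand CPM (log axis) and by log2(CPM + 1) in replicate 2 minus replicate 1. Dashed lines mark a difference of 1 on this scale in either direction. The 2-fold threshold of the test used CPM without the added 1, so at low CPM the lines are not that threshold. The cluster hairpins (red) lie between -0.32 and 0.44, and the 5 above 100 CPM between -0.08 and 0.09.

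Lists of miRNA genes for other cell types were read beside this difference. The 7 mesenchymal and mural genes with a row, led by Mir143, summed to 16134 CPM (replicate 2) and 13294 CPM (replicate 1), a log2 difference of 0.28. The endothelial gene Mir126a had 21180 CPM (replicate 2) and 16564 CPM (replicate 1), a difference of 0.35. Mir206, a miRNA of skeletal muscle, had 117 reads (26.6 CPM) in replicate 2 and 13 reads in replicate 1, a log2 difference of 2.79. Mir208a, Mir208b and Mir499, the other muscle genes that share no stretch, were lower in replicate 2 and did not pass the test. Mir208a had 3.87 CPM (replicate 2) and 5.77 CPM (replicate 1), Mir208b had 18.4 and 19.2 CPM, and Mir499 had 4.32 and 5.08 CPM. The 8 muscle genes with a row summed to 53.4 CPM (replicate 2) and 33.2 CPM (replicate 1). The 10 neural genes, led by Mir92b, summed to 28523 CPM (replicate 2) and 28978 CPM (replicate 1), a difference of -0.02. The neural genes that share no stretch did not all go the same way. Mir92b and Mir137 were slightly higher in replicate 2, at 0.03 and 0.04, and Mir153 was lower, at -0.55. The 2 erythroid genes summed to 238.3 CPM (replicate 2) and 317.8 CPM (replicate 1), but went opposite ways. Mir144 had 35.5 CPM (replicate 2) and 24.7 CPM (replicate 1), and Mir451a had 202.9 CPM (replicate 2) and 293.1 CPM (replicate 1). The 3 leukocyte genes with a row summed to 452.1 CPM (replicate 2) and 372.7 CPM (replicate 1). The part of these cell types in the level of Mir351 was not tested. In bulk tissue, fewer cells of a type and less RNA per cell cannot be told apart.

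Among miRNA clusters of the genome, the Mir322 cluster came in place 4 by summed level of assigned reads. Genes with a row were joined where they lay on the same strand at most 10 kb apart, which gave 15 clusters of at least 4 genes. The cluster stood at 17892 ± 376.9 CPM (SD, n = 2), against 101830 ± 1358 CPM for the 6 genes led by Mir17, the miR-17~92 cluster. In the Dlk1-Dio3 region of chromosome 12, 34 genes led by Mir487b summed to 62646 ± 976.3 CPM and 13 genes led by Mir127 to 23651 ± 1487 CPM. Its nearest neighbour on the X chromosome, the 6-gene cluster led by Mir106a, begins 305.4 kb downstream of Mir450b and summed to 6836 ± 391.2 CPM. On the other side the next miRNA gene, Gm22103, lay 3016 kb away and had no reads.

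The Mir322 cluster had the highest share in its leading gene among the 9 clusters of at least 100 CPM, in assigned reads. Mir322 held 79.6% of its cluster, against 59.6% for Mir17, 40.1% for Mir106a, 36.6% for Mir127 and 22.3% for Mir487b, with a median of 40.1% over the 9. Below 100 CPM, Mir1264 held 90.7% of a cluster of 37.9 CPM. By the log2(CPM + 1) distance between highest and lowest gene, the cluster came in place 3 of 9, at 11.1 against a median of 10.3. The lowest gene in this distance is Mir450-2, whose level is uncertain. With a limit of 3 kb between neighbours the cluster was cut at the gap between Mir351 and Mir542, and the piece with Mir542 and the miR-450 hairpins, at 624.8 CPM, came in place 8 of 10.

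**Figure D4:**
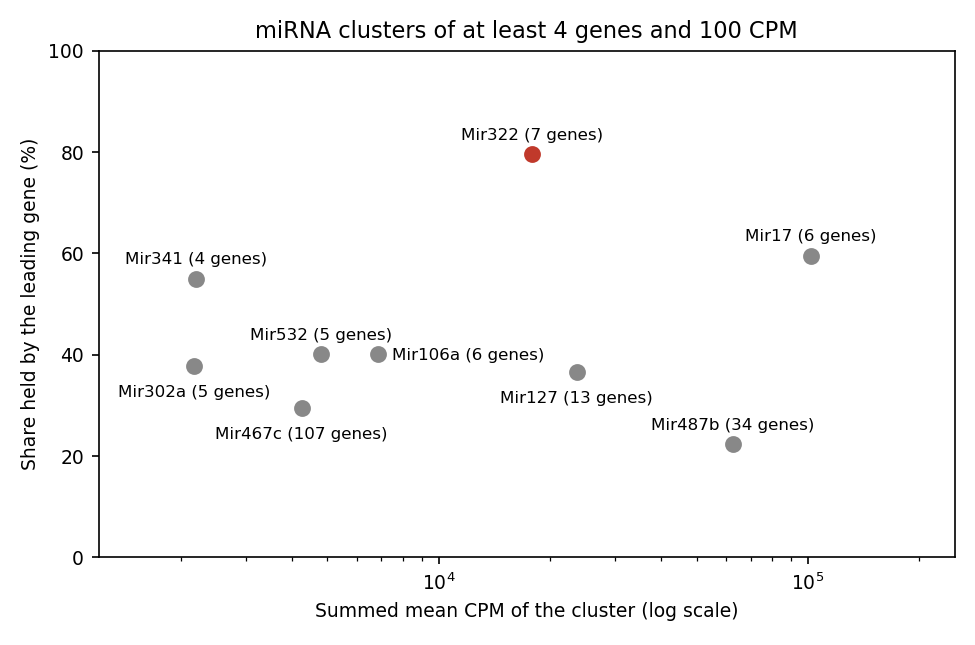
Each point is a miRNA cluster of at least 4 genes and 100 CPM, named by its leading gene, by summed mean CPM (log axis) and by the share held by the leading gene (%). The Mir322 cluster (red) lies highest, at 79.6%, at a summed level of 17892 CPM.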

How the data were processed

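The deposited tables hold raw read counts per miRNA gene, for both strands, the gene strand and the opposite strand, a column order read from the values. Per the labels and the accompanying notes, the authors made them from reads aligned to mm10 and annotation M4 of GENCODE. Aligner and adapter trimming are not given in the sources. The 4 rows that name no gene, 60.6% and 61.0% of reads in replicates 2 and 1, did not enter library sizes or tests. They include reads that match several places, 37.9% in each.

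Symbols and positions (1-based) come from GENCODE M21, matched by Ensembl ID for 1894 of 1973 genes, and sequences from RefSeq GRCm38.p6, matched by symbol or position. All 7 members matched both. CPM used gene-strand counts. Genes with at least 10 reads were compared between the libraries with Fisher's exact test (SciPy 1.17.1) and Benjamini-Hochberg adjustment. The code was tried on simulated counts with counting error alone and changes larger than 2-fold. That trial does not bear on the smaller differences called at adjusted p alone. With 1 group, edgeR's quasi-likelihood test had no contrast to fit. Alternatives used edgeR 4.0.16 TMM and DESeq2 1.42.0 size factors, other filters, pseudocounts, strands and gaps, and each replicate left out. Levels were not corrected for how well each sequence is captured. The separate pools gave 1 library each, so p-values measure differences between these libraries, which may be technical.

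All members, the genes of their seed families and the flanking genes are named by rule. The rule also names the 3 genes nearest in level to the 3 highest members and the 3 highest other clusters. Mir652, Mir1264, the cluster led by Mir106a and the single marker genes named, Mir206 among them, were added once their values had been seen. The members and lists were chosen with earlier results of these data known.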

Additional observations from a re-analysis of the deposited data

Results flagged for a closer look

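Reads that matched more than 1 place lie outside every comparison and numbered 4224434 in replicate 2 and 4213961 in replicate 1. There were no control samples, so they are listed because they exceed what a count of 0 allows. They bear on every place among genes and on the seed family shares, and within the cluster on Mir450-1 and Mir450-2, which share the whole of miR-450a-5p, and the number of them that came from these hairpins cannot be read from the files.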

How the results depend on the processing

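The order of the hairpins was the same in each library and per base of hairpin, and the share of Mir322 was 79.5% to 79.7%. The both-strand column could not move either, as the hairpins had no opposite-strand reads, and leaving out 1 of 2 libraries always moves a mean by less than the SD. The summed level of the cluster was 17403 CPM in the both-strand column, 20477 CPM with the most abundant gene left out of the library size and 7018 CPM per 1000000 of all reads, where the library size itself differs. Without either replicate it was 17626 to 18159 CPM. The ratio of Mir322 between the libraries turned to -0.0044 with TMM scaling. With DESeq2 size factors 1 hairpin passed the adjusted p in place of 2. Without genes that share a stretch, Mir322 held 60.2% and Mir351 35.6% of their seed families; this can only raise these shares, whereas the uncounted reads of those genes would lower them, so it is no bound. With neighbours at most 3 kb apart the cluster split and its downstream piece came in place 8, while the upstream piece with Mir322 had too few genes to be ranked. Crediting reads to Mir497, levels per base of hairpin and leaving out Mir450-1 and Mir450-2 were chosen after seeing the data. No paired analysis was possible because the series has 1 group. Depth limits Mir450-1 and Mir450-2, with 21 to 54 reads a library.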
